A study of Rattus norvegicus with 23 samples.

Results

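The genes described here are 35 genes of the unfolded protein response and the integrated stress response, read by symbol from a table of 28913 genes counted in 23 libraries of rat liver. They comprise 11 chaperones and co-chaperones of the endoplasmic reticulum (ER), 7 lectin chaperones and disulfide isomerases, 7 genes of ER-associated degradation, 6 stress sensors and transcription factors, and 4 targets of the transcription factors ATF4 and CHOP. All 35 had a row. Derl3, which encodes a derlin of ER-associated degradation, had a count of 0 in all 23 libraries, which allows up to 0.0379 CPM in the deepest library and 0.0941 CPM in the shallowest (3 counts each, counting error only). Derl3 overlaps the protein-coding gene Smarcb1 in the RefSeq annotation, and how reads of such pairs were counted is not known. The limit may therefore not hold for its expression. The other 34 were among the 15079 genes that passed the filter on low counts.

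The series models portosinusoidal vascular disease, in which small hepatic vessels are affected, in Sprague Dawley rats. LPS comprised 7 libraries from rats given lipopolysaccharide, a component of bacterial outer membranes, at 1 mg/kg, 2 times a week for 8 weeks through a catheter placed surgically in the portal system. Selfox comprised 10 libraries from rats kept for 8 weeks on a diet enriched in selenium and given 8 weekly intravenous injections of oxaliplatin (3 mg/kg), 5-fluorouracil (25 mg/kg) and folinic acid (45 mg/kg). Control comprised 6 libraries whose labels give no treatment, and whether these rats had surgery, a control diet or vehicle is not stated. Surgery and catheter cannot be told apart from LPS, nor diet from drugs, and age and sex are not given in the labels. Whether every library came from its own rat is not stated in the labels, so p-values measure only spread among these libraries.

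The unfolded protein response adjusts the folding capacity of the ER to its load. BiP, encoded by Hspa5, holds the sensors IRE1 (Ern1), PERK (Eif2ak3) and ATF6 inactive and leaves them when unfolded protein accumulates. IRE1 then splices the messenger of Xbp1, ATF6 is cut into a transcription factor, and PERK phosphorylates the translation factor eIF2. Phosphorylated eIF2, to which other kinases also lead, favours translation of ATF4, which turns on amino acid and redox genes and CHOP (Ddit3), and this branch is the integrated stress response. Hepatocytes secrete most plasma proteins and are rich in this machinery.

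Total counts (M, mega-counts) ranged from 70.4 to 79.2 M in LPS, from 65.1 to 74.8 M in Selfox and from 31.9 to 53.8 M in Control. The liver label was checked with 9 hepatocyte markers, which summed to 108136 to 184913 CPM (counts scaled to a common library size) in LPS, 125186 to 151634 in Selfox and 149053 to 227373 in Control. In 5 libraries, LPS 5, LPS 6, LPS 7, Selfox 8 and Control 55, the clock output gene Dbp exceeded the clock gene Arntl, which peaks at the opposite time of day. These are called late-clock libraries, and Selfox 8 joined them by a near tie (0.0042 on the log2 scale). Among the 34 genes, Selfox 4 held the highest value of its group for 23, and LPS 5 held the lowest of its group for 15.

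Promoter windows of 250 bases before to 50 bases after the gene start were available for 29 of the 35 genes, in 30 windows, from RefSeq on build GRCr8. The windows were searched on both strands for the ER stress response element (ERSE: CCAAT, 9 bases of any kind, CCACG), which ATF6 and XBP1 bind with the factor NF-Y, for its compact form ERSE-II (ATTGG, 1 base, CCACG), for the core bound by ATF6 and XBP1 (TGACGTG), and for the element of ATF4 with C/EBP factors (CARE: TGATGNAA). ERSE was present in 8 of 29 genes and in 0.0657% of all 33469 windows of this length, and ERSE-II in 3 of 29 genes and in 0.0508% of windows. The TGACGTG core was present in 3 of 29 genes (Hspa5, Hyou1, Dnajc10) and in 1.81% of windows, and CARE in 3 of 29 (Herpud1, Trib3, Chac1) and in 3.98% of windows. In Hyou1 the core overlapped an ERSE-II. A match describes the letters of a window and is not a measured binding site. The elements of 9 genes are shown because they mark the chaperones, Herpud1 and Xbp1 whose values follow. Each is written 5′ to 3′ on its own strand, with the fixed boxes in capitals.
Hspa5 ERSE: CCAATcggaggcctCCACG
Hsp90b1 ERSE, distal: CCAATcgaaaggagCCACG
Hsp90b1 ERSE, proximal: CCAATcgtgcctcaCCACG
Creld2 ERSE: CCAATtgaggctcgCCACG
Xbp1 ERSE: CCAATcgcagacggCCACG
Dnajc3 ERSE: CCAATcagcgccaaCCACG
Calr ERSE: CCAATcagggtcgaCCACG
Canx ERSE: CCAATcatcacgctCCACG
Hyou1 ERSE-II, distal: ATTGGcCCACG
Herpud1 ERSE-II: ATTGGgCCACG

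The Hspa5 element lay 43 to 25 bases before the gene start and that of Creld2 145 to 127 bases before it. The Calr and Canx elements lay farther out, beginning 232 and 230 bases before the start. The stretch of 250 bases before the Hspa5 start (chr3:38452766-38453015, plus strand, GRCr8) is given with the TGACGTG core and the ERSE in capitals, because Hspa5 anchors the comparisons between genes below.
Hspa5 promoter: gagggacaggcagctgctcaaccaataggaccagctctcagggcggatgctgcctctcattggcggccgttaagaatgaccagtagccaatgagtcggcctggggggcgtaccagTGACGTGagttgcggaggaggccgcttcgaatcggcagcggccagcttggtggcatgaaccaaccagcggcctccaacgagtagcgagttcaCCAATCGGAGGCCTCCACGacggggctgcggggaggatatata

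In LPS livers 4 of the 34 genes were lower than in Control livers: Creld2, Hyou1 and Hspa5 among the chaperones and Syvn1 in ER-associated degradation. In Selfox livers 11 were lower than in Control: those 4, the chaperones Dnajb9 and Hsp90b1, the degradation genes Herpud1 and Sel1l, the transcription factor Xbp1 and the ATF4 targets Trib3 and Asns. In Selfox livers 5 were lower than in LPS livers: Trib3, Herpud1, Atf4, Ddit3 and Ern1. No gene of the 34 was called higher in any of the 3 comparisons by edgeR's quasi-likelihood test with Benjamini-Hochberg adjustment over all 15079 genes and a threshold of 0.05. Both comparisons with Control share the same 6 Control libraries.

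The share called lower was 11.8% of the 34 genes in LPS with Control, where 6.99% of all tested genes were lower and 7.71% higher. It was 32.4% in Selfox with Control, against 14.9% of all genes lower and 14.2% higher, and 14.7% in Selfox with LPS, against 7.64% lower and 6.86% higher. The median log2 fold change of the 34 genes was -0.09 for LPS with Control, -0.16 for Selfox with Control and -0.01 for Selfox with LPS. Over all genes the median was between 0.00 and 0.01 in every comparison. At an unadjusted p below 0.05, 5 genes were higher and 9 lower in LPS than in Control. For Selfox with Control 2 were higher and 12 lower, and for Selfox with LPS 0 higher and 5 lower. In either direction, 4420, 6080 and 4270 of all 15079 genes passed this limit in the same comparisons. DESeq2 called 1 gene higher in LPS (Ddit3) and 1 in Selfox (P4hb) against Control, and 0 in Selfox against LPS. With limma voom these were 3 (Derl1, Derl2, P4hb), 3 (Derl1, Erp44, P4hb) and 0. Genes called lower numbered 5, 11 and 5 by DESeq2 and 6, 10 and 4 by voom. Of all genes, DESeq2 called 1398 higher and 1282 lower in LPS with Control, and 2440 and 2314 in Selfox with Control. For voom the counts over all genes were 1583 and 1558 in LPS, and 2460 and 2649 in Selfox. RNA came from whole liver, where fewer cells of a type and less RNA per cell cannot be told apart.

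**Figure D1:**
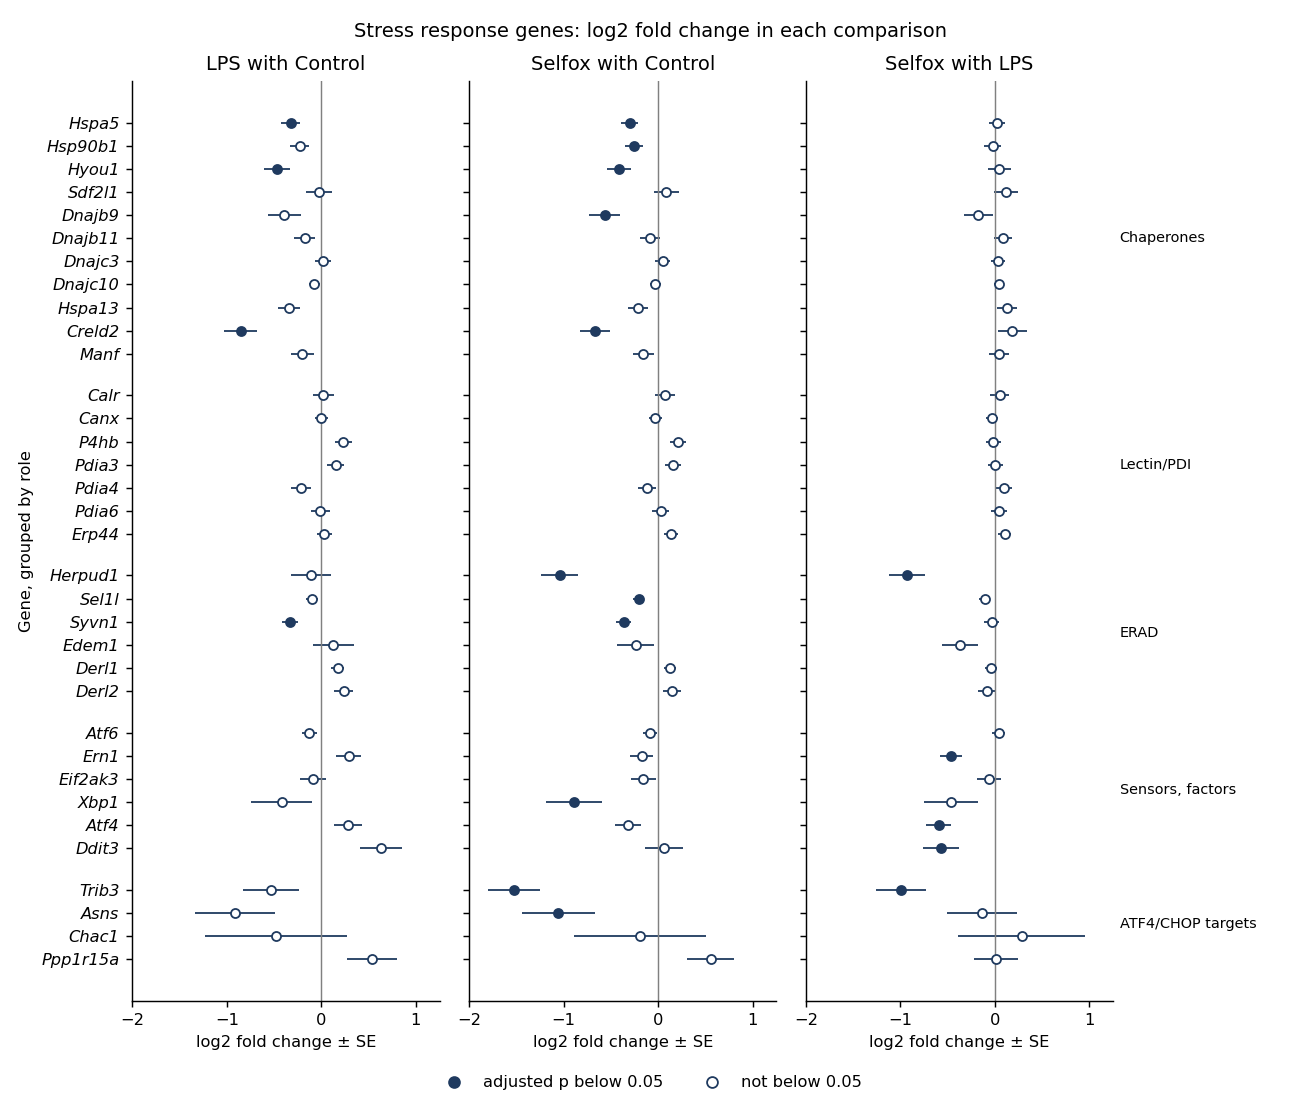
Log2 fold change with its standard error of the 34 tested genes, grouped by role, with a panel for each comparison; filled points passed an adjusted p of 0.05. Every filled point lies below 0, with Creld2 the lowest filled point in LPS with Control (-0.85) and Trib3 in both comparisons of Selfox (-1.52 with Control, -0.99 with LPS).

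Among the chaperones, 3 of 11 were lower in LPS with Control (27.3%) and 5 of 11 in Selfox with Control (45.5%), and the group's median log2 fold change was -0.23 and -0.21. Of all tested genes 6.99% and 14.9% were lower in these comparisons. Creld2, an ER-resident disulfide isomerase-like protein, had 14.9, 21.1 and 32.7 CPM (lowest, median, highest) in LPS libraries, 18.3, 23.9 and 38.6 CPM in Selfox libraries and 34.8, 37.5 and 49.7 CPM in Control libraries. All 7 LPS libraries lay below every Control library, and 9 of 10 Selfox libraries did; Selfox 4 was the exception. The log2 fold change was -0.85 ± 0.17 (SE, adjusted p = 0.00214) in LPS with Control and -0.67 ± 0.16 (adjusted p = 0.0027) in Selfox with Control, and Creld2 stayed past the threshold in every alternative fit of both comparisons. In the RefSeq annotation Creld2 overlaps Alg12, which fell by 0.63 in LPS and by 0.54 in Selfox on the log2 scale relative to Control. With the strand setting of the counting not given, reads of the pair cannot be told apart.

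Hspa5, the BiP chaperone itself, had 676, 859 and 996 CPM in LPS libraries, 698, 823 and 1078 CPM in Selfox libraries and 994, 1022 and 1143 CPM in Control libraries. Below every Control library lay 6 of 7 LPS libraries and 8 of 10 Selfox libraries, so the groups overlapped by a few libraries. The log2 fold change was -0.33 ± 0.10 (adjusted p = 0.0266) in LPS and -0.30 ± 0.09 (adjusted p = 0.0141) in Selfox. Without the late-clock libraries the value in LPS with Control was -0.23 with an adjusted p of 0.169, and without LPS 5, LPS 6 or Control 52 alone the call was also lost. In Selfox with Control the call held in every alternative fit.

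Hyou1, the nucleotide exchange factor of BiP, had 111, 139 and 184 CPM in LPS libraries, 118, 142 and 214 CPM in Selfox libraries and 162, 194 and 258 CPM in Control libraries. The lower values were in 5 of 7 LPS and 8 of 10 Selfox libraries, which lay below every Control library (-0.46 ± 0.14, adjusted p = 0.0251 in LPS; -0.42 ± 0.13, adjusted p = 0.0157 in Selfox). Both calls were lost without Control 52, the highest Control library (adjusted p = 0.0783 in LPS and 0.0712 in Selfox), and the LPS call also without LPS 5 (adjusted p = 0.0541). Its distal ERSE-II is the one printed above.

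Dnajb9, a co-chaperone that brings BiP to IRE1, was called in Selfox. Its level was 51.0, 54.7 and 69.5 CPM in LPS libraries, 33.3, 47.1 and 88.5 CPM in Selfox libraries and 60.7, 79.8 and 86.6 CPM in Control libraries. Selfox libraries spread widely, with 8 of 10 below every Control library and Selfox 4 above every Control library, and the log2 fold change was -0.57 ± 0.16 (adjusted p = 0.0108) in Selfox and -0.39 ± 0.18 (adjusted p = 0.138) in LPS. Hsp90b1, the ER form of HSP90, had 608, 893 and 1064 CPM in LPS libraries, 716, 870 and 994 CPM in Selfox libraries and 906, 1050 and 1093 CPM in Control libraries. Its log2 fold change was -0.26 ± 0.09 (adjusted p = 0.0434) in Selfox, a call lost in 9 of 16 fits that left out 1 library and without the filter, and -0.23 ± 0.10 (adjusted p = 0.13) in LPS.

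The other 6 chaperones passed the threshold of edgeR's test in neither comparison with Control. Hspa13, an ER-associated member of the HSP70 family, had a log2 fold change of -0.34 ± 0.12 in LPS (adjusted p = 0.0514), with 6 of 7 LPS libraries below every Control library, and -0.21 ± 0.11 in Selfox. Of 10 alternatives other than leaving out 1 library, 5 called Hspa13 lower in LPS, with DESeq2 and limma voom among the 5. Of 13 fits that left out 1 library, 2 called it. Manf, a secreted BiP cofactor, had -0.20 ± 0.12 in LPS and -0.16 ± 0.11 in Selfox, and Dnajb11, a co-chaperone of BiP, -0.18 ± 0.11 and -0.09 ± 0.10. Sdf2l1, Dnajc3 and Dnajc10 lay between -0.07 and 0.09 in both comparisons. In Selfox with LPS 0 of 11 chaperones were called by edgeR, 0 had an unadjusted p below 0.05, and DESeq2 and voom called 0. Of all tested genes 7.64% were lower and 6.86% higher by edgeR in that comparison. The median log2 fold change of the 11 chaperones was 0.05.

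**Figure D2:**
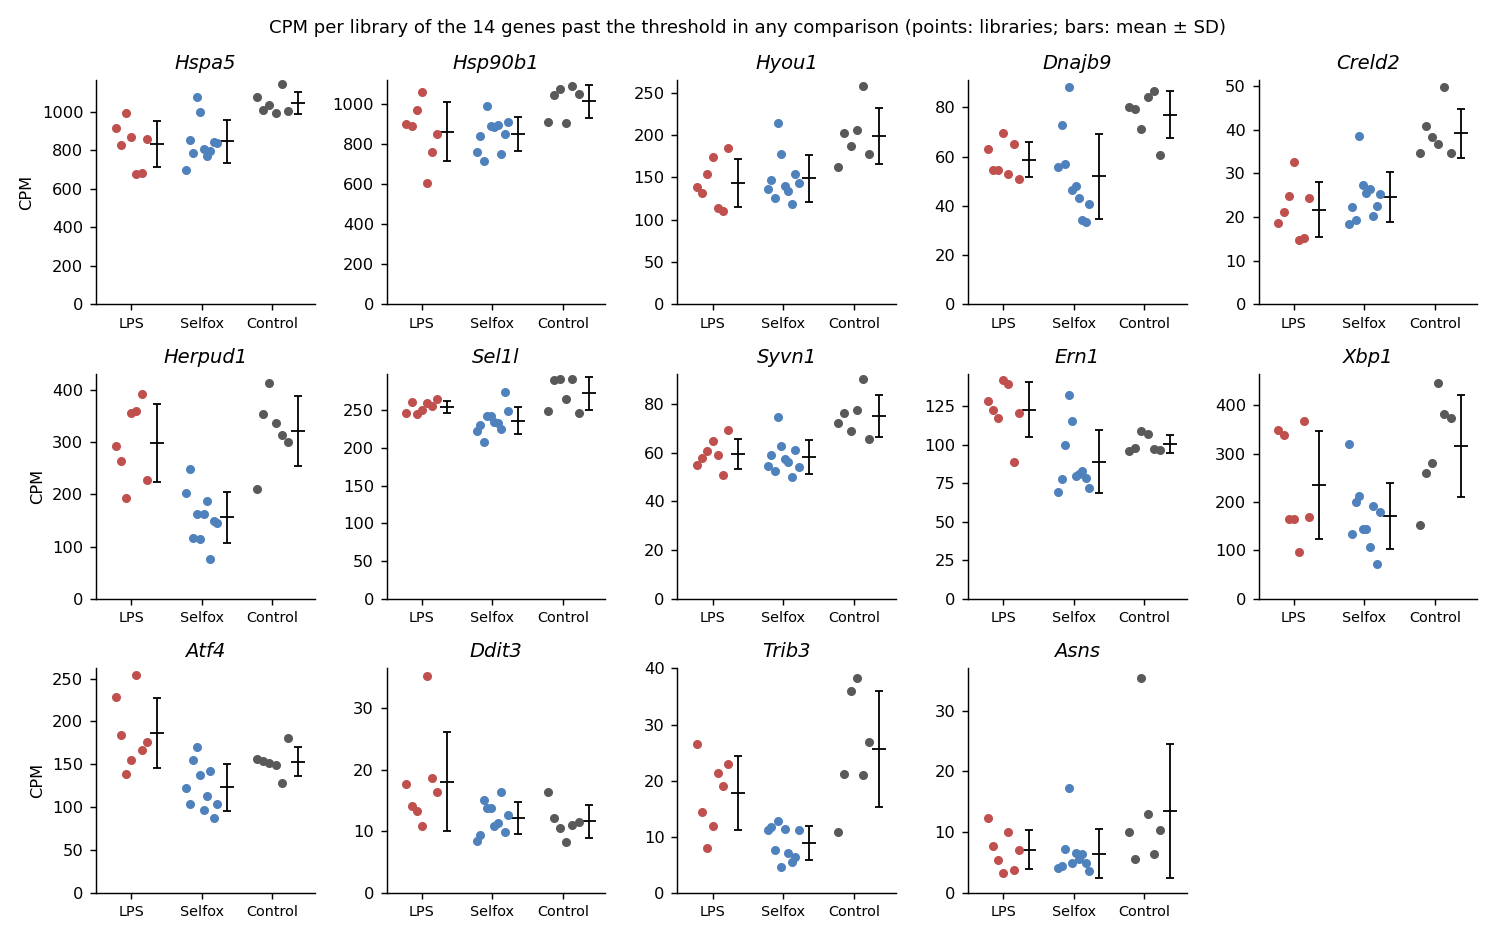
CPM in each library (y axis from 0) of the 14 genes past the threshold in any comparison, with LPS in red, Selfox in blue and Control in grey and the mean ± SD beside each group. Creld2 libraries of LPS (14.9 to 32.7 CPM) lie below those of Control (34.8 to 49.7 CPM), Herpud1 libraries of Selfox (75.9 to 249 CPM) lie mostly below those of LPS and Control, and 1 Control library carries Asns to 35.4 CPM.

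None of the 7 lectin chaperones and disulfide isomerases was called in any comparison by edgeR. Of all tested genes 6.99% to 14.9% were lower and 6.86% to 14.2% higher, depending on the comparison. With only 7 genes, 0 calls is not far from these shares. P4hb, the beta subunit of prolyl hydroxylase and a disulfide isomerase, had 1196, 1339 and 1394 CPM in LPS libraries, 1111, 1224 and 1669 CPM in Selfox libraries and 1040, 1093 and 1288 CPM in Control libraries. Its log2 fold change was 0.23 ± 0.09 in LPS (adjusted p = 0.082) and 0.21 ± 0.08 in Selfox (adjusted p = 0.0568), with 5 of 7 LPS and 4 of 10 Selfox libraries above every Control library. Pdia3, a disulfide isomerase for glycoproteins, had 0.15 ± 0.09 in LPS and 0.16 ± 0.08 in Selfox, and without the late-clock libraries these values were 0.30 (adjusted p = 0.0302) in LPS and 0.22 (adjusted p = 0.0271) in Selfox. Pdia3 overlaps Catsper2 in RefSeq. The lectin chaperones Calr and Canx lay between -0.03 and 0.07, Pdia6 between -0.01 and 0.03, and Pdia4 at -0.21 ± 0.10 and -0.12 ± 0.10 in LPS and Selfox. Erp44, which retains proteins in the early secretory pathway, had 0.03 ± 0.08 in LPS and 0.14 ± 0.07 in Selfox.

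At an unadjusted p below 0.05, 1 gene of these 7 was higher and 1 lower in LPS against Control, 1 higher and 0 lower in Selfox against Control, and 0 in either direction in Selfox against LPS. DESeq2 called 0, 1 (P4hb) and 0 of them, and limma voom 1 (P4hb), 2 (Erp44, P4hb) and 0, all higher. Summed over the 7 genes the level was 3637 to 4697 CPM in LPS, 3736 to 5045 CPM in Selfox and 3720 to 4438 CPM in Control. The groups overlapped almost fully, although the median was higher in LPS (4252 CPM) and Selfox (4215 CPM) than in Control (3918 CPM). The sum of the 11 chaperones had a median of 2489 CPM in LPS, 2433 CPM in Selfox and 2928 CPM in Control. Its ranges overlapped too. The highest sum was 2793 CPM in LPS and 3082 CPM in Selfox, and the lowest in Control was 2741 CPM.

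In ER-associated degradation, 1 of 6 tested genes was lower in LPS than in Control and 3 of 6 in Selfox than in Control. In Selfox with LPS it was 1 of 6. Of all tested genes 6.99%, 14.9% and 7.64% were lower in these comparisons, and with 6 genes a single call is already 16.7%. Herpud1, a membrane scaffold of the degradation complex, had 193, 293 and 393 CPM in LPS libraries, 75.9, 156 and 249 CPM in Selfox libraries and 211, 325 and 415 CPM in Control libraries. Selfox was low against both other groups, with 9 of 10 Selfox libraries below every Control library and 8 of 10 below every LPS library. The log2 fold change was -1.04 ± 0.20 (adjusted p = 0.000444) against Control and -0.93 ± 0.19 (adjusted p = 0.00189) against LPS, and both calls held in every alternative fit. In LPS with Control it was -0.11 ± 0.21 (adjusted p = 0.778). Herpud1 overlaps LOC102553339, a protein-coding gene, in RefSeq, so its reads may be shared. The same holds for Dnajb9 and Sel1l, which overlap long noncoding RNA genes, and for Ern1, which overlaps a pseudogene. Atf6, which was not called, overlaps a protein-coding gene.

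The 250 bases before the Herpud1 start (chr19:10614708-10614957, minus strand, GRCr8) are printed because this window holds both an ERSE-II, 124 to 114 bases before the start, and a CARE on the opposite strand, 184 to 177 bases before it. Both are in capitals, the CARE as it reads on the strand of the gene.
Herpud1 promoter: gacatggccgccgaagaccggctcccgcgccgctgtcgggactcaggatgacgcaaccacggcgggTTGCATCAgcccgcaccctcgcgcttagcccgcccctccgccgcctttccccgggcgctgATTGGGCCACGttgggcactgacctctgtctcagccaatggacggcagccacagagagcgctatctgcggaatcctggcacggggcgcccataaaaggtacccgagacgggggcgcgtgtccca

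Syvn1, the ubiquitin ligase HRD1 of ER-associated degradation, had 50.7, 59.0 and 69.4 CPM in LPS libraries, 50.1, 56.9 and 74.6 CPM in Selfox libraries and 65.4, 74.2 and 90.3 CPM in Control libraries. Below every Control library lay 6 of 7 LPS and 9 of 10 Selfox libraries (-0.33 ± 0.09, adjusted p = 0.0144 in LPS; -0.37 ± 0.08, adjusted p = 0.00182 in Selfox), and both calls held in every alternative fit. Syvn1 overlaps Mrpl49 in RefSeq, which was lower in Selfox too (-0.36 ± 0.11), so its reads are uncertain in the same way as those of Creld2. Sel1l, the adaptor that stabilises HRD1, had 245, 256 and 265 CPM in LPS libraries, 208, 233 and 274 CPM in Selfox libraries and 247, 278 and 292 CPM in Control libraries. It was lower in Selfox (-0.21 ± 0.06, adjusted p = 0.0102), with 8 of 10 libraries below every Control library, and was -0.10 ± 0.06 in LPS (adjusted p = 0.323).

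Edem1, which hands misfolded glycoproteins to degradation, spread from 361 to 1122 CPM within LPS and was called in no comparison (0.13 ± 0.22 in LPS against Control, -0.24 ± 0.20 in Selfox against Control). The derlins Derl1 and Derl2, membrane proteins of the export channel, had log2 fold changes of 0.17 ± 0.07 and 0.24 ± 0.10 in LPS and of 0.13 ± 0.07 and 0.15 ± 0.10 in Selfox, with adjusted p from 0.107 to 0.25.

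Among the sensors and transcription factors, 0 of 6 were called in LPS against Control, 1 of 6 was lower in Selfox than in Control and 3 of 6 were lower in Selfox than in LPS. The 1 of 6 (16.7%) was near the 14.9% of all tested genes lower in Selfox with Control. The 3 of 6 (50%) stood beside 7.64% of all genes lower in Selfox with LPS. In LPS with Control edgeR's 0 compares with 2 higher genes at an unadjusted p below 0.05, 1 by DESeq2 (Ddit3) and 0 by voom. Xbp1, the transcription factor made active by IRE1 splicing, had 97.0, 169 and 368 CPM in LPS libraries, 71.4, 162 and 319 CPM in Selfox libraries and 153, 327 and 446 CPM in Control libraries; gene counts do not separate the spliced form. Its libraries spread widely in every group, and 5 of 10 Selfox libraries lay below every Control library (-0.89 ± 0.30, adjusted p = 0.0276). The call was lost without Control 49, Control 52 or Control 55 (adjusted p up to 0.0806) and without the filter. In LPS with Control the value was -0.42 ± 0.32 (adjusted p = 0.413).

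Atf4, the transcription factor of the integrated stress response, had 139, 176 and 254 CPM in LPS libraries, 86.9, 117 and 170 CPM in Selfox libraries and 128, 153 and 181 CPM in Control libraries. Control lay between the other groups. Selfox was lower than LPS (-0.60 ± 0.13 on the log2 scale, adjusted p = 0.00334), with 7 of 10 Selfox libraries below every LPS library. That call was lost when libraries 1 to 7 of both groups were fitted by edgeR with same-numbered ones as blocks (adjusted p = 0.0641). LPS with Control was 0.28 ± 0.15 (adjusted p = 0.216) and Selfox with Control -0.32 ± 0.14 (adjusted p = 0.0857). ATF4 protein is set mostly by translation, which messenger counts do not show. Ern1, the IRE1 kinase and nuclease, had 88.6, 123 and 142 CPM in LPS libraries, 69.3, 80.4 and 132 CPM in Selfox libraries and 96.1, 97.3 and 109 CPM in Control libraries. It was lower in Selfox than in LPS (-0.47 ± 0.11, adjusted p = 0.00749), with 0.29 ± 0.13 in LPS against Control and -0.18 ± 0.12 in Selfox against Control, where 6 of 7 LPS libraries lay above every Control library and 7 of 10 Selfox libraries below.

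Ddit3, which encodes CHOP, had 10.9, 16.4 and 35.2 CPM in LPS libraries, 8.38, 12.0 and 16.4 CPM in Selfox libraries and 8.23, 11.3 and 16.4 CPM in Control libraries. The highest value was in LPS 5, and the log2 fold change of LPS with Control was 0.63 ± 0.22 (adjusted p = 0.0543), or 0.38 without LPS 5 (adjusted p = 0.145) and 0.26 (adjusted p = 0.401) with the late-clock libraries left out. Selfox was lower than LPS (-0.57 ± 0.19, adjusted p = 0.0453), a call lost in 11 of 17 fits that left out 1 library and in 8 of 12 other alternatives. Without LPS 5 it was -0.32 (adjusted p = 0.167), and with the late-clock libraries left out -0.26 (adjusted p = 0.361). Ddit3 overlaps Mars, the methionyl-tRNA synthetase gene, in RefSeq (Mars was -0.25 ± 0.07 in Selfox against Control), so its reads are uncertain too. The sensors Atf6 and Eif2ak3 had log2 fold changes between -0.16 and 0.04 in the 3 comparisons, and neither was called.

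Of the 4 targets of ATF4 and CHOP, 2 were lower in Selfox than in Control and 1 was lower in Selfox than in LPS, where 14.9% and 7.64% of all tested genes were lower. Trib3, a pseudokinase induced by ATF4 and CHOP that restrains AKT signalling, had 8.04, 19.1 and 26.6 CPM in LPS libraries, 4.55, 9.40 and 12.8 CPM in Selfox libraries and 10.8, 23.99 and 38.4 CPM in Control libraries. Selfox libraries all lay at or under 12.8 CPM, and 5 of 10 were below every Control library (-1.52 ± 0.27, adjusted p = 0.000328), which held in every alternative fit. Against LPS the value was -0.99 ± 0.26 (adjusted p = 0.0134), and with the late-clock libraries left out -0.71 (adjusted p = 0.209). In LPS with Control it was -0.53 ± 0.30 (adjusted p = 0.244).

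The 250 bases before the Trib3 start (chr3:161275534-161275783, minus strand, GRCr8) are printed because the CARE, in capitals as read on the strand of the gene, lies 21 to 14 bases before the start. No ERSE or ERSE-II letters are in this window.
Trib3 promoter: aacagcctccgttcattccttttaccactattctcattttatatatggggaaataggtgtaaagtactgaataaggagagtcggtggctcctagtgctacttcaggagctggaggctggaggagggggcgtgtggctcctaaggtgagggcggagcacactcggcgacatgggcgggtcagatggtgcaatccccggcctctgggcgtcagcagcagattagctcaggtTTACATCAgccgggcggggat

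Asns, asparagine synthetase, had 3.34, 7.06 and 12.3 CPM in LPS libraries, 3.51, 5.20 and 17.3 CPM in Selfox libraries and 5.57, 10.2 and 35.4 CPM in Control libraries. Control 46 alone carried the highest value, and the log2 fold change of -1.06 ± 0.38 in Selfox (adjusted p = 0.0426) was -0.48 (adjusted p = 0.312) without it. The call was lost in 11 of 16 fits that left out 1 library and in 4 of 10 other alternatives. Chac1, a glutathione-degrading enzyme, ranged from 6.18 to 58.3 CPM in LPS, from 4.56 to 118 CPM in Selfox and from 13.9 to 51.5 CPM in Control. In Selfox 3 libraries lay above every Control library and 7 below, and the log2 fold change was -0.19 ± 0.70, so at this spread a change was not detectable. Ppp1r15a, the stress-induced subunit of the eIF2 phosphatase, had 0.54 ± 0.26 in LPS (adjusted p = 0.178) and 0.55 ± 0.25 in Selfox (adjusted p = 0.0971).

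**Figure D3:**
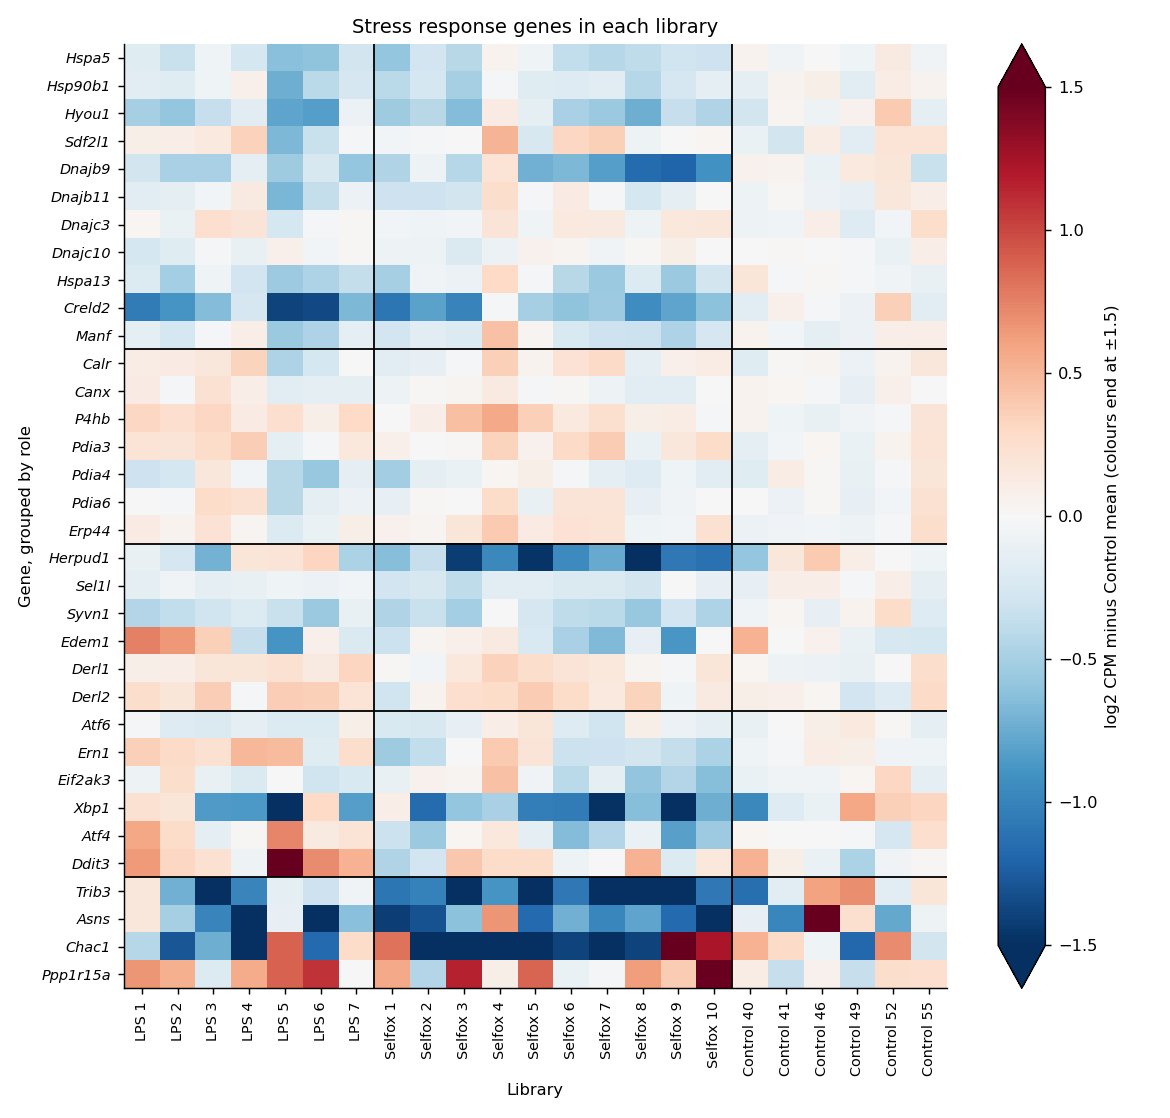
Log2 CPM of the 34 genes in each library minus the mean of the Control libraries, with LPS, Selfox and Control from left to right and the roles separated by black lines; red is higher and blue lower than the Control mean. Creld2 is blue in nearly all LPS and Selfox columns, Herpud1 and Trib3 are dark blue in most Selfox columns, Chac1 splits the Selfox columns, and Selfox 4 is the reddest Selfox column among the chaperones.

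Some libraries moved the counts of calls. Without Selfox 4, which held the highest Selfox value of 23 genes, 14 genes were called in Selfox with Control in place of 11, and without Control 52, 8 were. In LPS with Control 2 genes remained without LPS 5 or without Control 52, Creld2 and Syvn1 in both cases, and 8 were called without Control 55. Without the late-clock libraries 3 genes were lower and 1 higher in LPS with Control, where the 4 calls were Creld2, Hyou1, Syvn1 and Pdia3. In Selfox with Control 10 were then lower and 4 higher, the higher ones being Derl1, Erp44, P4hb and Pdia3.

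The related pathways were read from lists chosen with earlier results of these data known. For all counts of calls in these lists, the shares over all tested genes were 6.99% lower and 7.71% higher in LPS with Control. They were 14.9% lower and 14.2% higher in Selfox with Control, and 7.64% lower and 6.86% higher in Selfox with LPS. Cytosolic heat shock genes, whose products fold proteins outside the ER, were lower in both models: 6 of 15 tested in LPS with Control and 7 of 15 in Selfox with Control, with 0 higher in each. Hspa8, the constitutive HSP70, averaged 308 CPM in LPS, 232 CPM in Selfox and 548 CPM in Control (-0.83 ± 0.15, adjusted p = 0.000974 in LPS; -1.24 ± 0.14, adjusted p = 1.43e-06 in Selfox), with all 10 Selfox libraries under the lowest Control library. Hsph1, an exchange factor of HSP70, averaged 50.1 CPM in LPS, 49.6 CPM in Selfox and 103 CPM in Control (-1.04 ± 0.17 in LPS and -1.06 ± 0.15 in Selfox). Ahsa1, which activates HSP90, had -0.37 ± 0.07 in LPS and -0.39 ± 0.07 in Selfox, with no overlap with Control in either group, and Hsp90ab1, a cytosolic HSP90, -0.48 ± 0.10 and -0.50 ± 0.09. In Selfox with LPS 2 of 15 were lower, Hspa8 (-0.41 ± 0.13) and Dnaja1, an HSP70 co-chaperone (-0.33 ± 0.10), and neither was called without the late-clock libraries, while 12 of 17 fits that left out 1 library lost Hspa8.

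Genes around eIF2 were lower too, 6 of 12 in LPS with Control and 8 of 12 in Selfox with Control, with 1 higher in each. Eif2b1, a subunit of the exchange factor that phosphorylated eIF2 inhibits, averaged 11.9 CPM in LPS, 10.8 CPM in Selfox and 17.2 CPM in Control (-0.54 ± 0.10, adjusted p = 0.00117 in LPS; -0.67 ± 0.09, adjusted p = 1.78e-05 in Selfox). Neither group overlapped with Control for Eif2b1 or for Eif2b5, its catalytic subunit (-0.34 ± 0.05 in LPS and -0.25 ± 0.05 in Selfox). Eif2b3 (-0.50 ± 0.13 in LPS and -0.42 ± 0.12 in Selfox) and the heme-regulated kinase gene Eif2ak1 (-0.21 ± 0.06 and -0.15 ± 0.06) were lower in both, and Eif2b4 (-0.26 ± 0.06) was called lower in Selfox. Of these, Eif2ak1 in Selfox was lost in 7 of 16 fits that left out 1 library. The total of 7 calls in LPS was 4 without Control 41 and 4 with the late-clock libraries left out. Ppp1r15b, the constitutive partner of the eIF2 phosphatase, averaged 77.6 CPM in Selfox, 132 CPM in LPS and 125 CPM in Control, and was lower in Selfox than in Control (-0.69 ± 0.15, adjusted p = 0.00192) and than in LPS (-0.77 ± 0.15, adjusted p = 0.00122). Its call against LPS was lost when libraries 1 to 7 of both groups were fitted with same-numbered ones as blocks.

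Of the other ATF4 targets and amino acid genes, 4 of 22 tested were lower in LPS with Control and 0 higher, and 7 were lower and 1 higher in Selfox with Control. Slc3a2, the heavy chain of amino acid transporters, averaged 75.5 CPM in LPS, 72.4 CPM in Selfox and 124 CPM in Control (-0.72 ± 0.12, adjusted p = 0.000579 in LPS; -0.78 ± 0.11, adjusted p = 2.89e-05 in Selfox). The serine synthesis genes Phgdh and Psat1 averaged 1.65 and 4.85 CPM in Selfox and 11.9 and 15.7 CPM in Control (-2.85 ± 0.46 and -1.69 ± 0.30), and for Psat1 the 10 Selfox libraries did not overlap with Control. Phgdh was lower in LPS too (-1.63 ± 0.49, adjusted p = 0.0299), a call lost in 4 of 13 fits that left out 1 library. Mthfd2, a mitochondrial folate enzyme, was lower in Selfox than in Control (-1.94 ± 0.37), and Slc7a1, the cationic amino acid transporter, was lower in LPS (-1.36 ± 0.43, lost in 7 of 13 such fits) and in Selfox (-1.16 ± 0.39, lost in 2 of 16). Without Control 46 the list had 1 call in LPS in place of 4.

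Against LPS, 3 of these 22 genes were lower and 1 higher in Selfox. Fgf21, a stress hormone of the liver, averaged 7.76 CPM in Selfox and 26.0 CPM in LPS (-1.74 ± 0.41, adjusted p = 0.00606), with all 10 Selfox libraries below every LPS library. This call was lost when libraries 1 to 7 of both groups were fitted with same-numbered ones as blocks. Slc7a11, the cystine importer, averaged 1.63 CPM in Selfox, 0.219 CPM in LPS and 1.33 CPM in Control, and was higher in Selfox than in LPS (2.89 ± 0.69) and lower in LPS than in Control (-2.58 ± 0.74). Both calls were lost under limma voom and with the late-clock libraries left out, and the second also without Control 46, where it was -1.62. Psph, the last enzyme of serine synthesis, was lower in Selfox than in LPS (-0.54 ± 0.13) and than in Control (-0.54 ± 0.14), and against LPS so was Mthfd2 (-1.05 ± 0.35), which 14 of 17 fits that left out 1 library lost. The call of Psph against LPS was lost with the same blocks as that of Fgf21.

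The aminoacyl-tRNA synthetases, which charge tRNAs and include ATF4 targets, were lower for 7 of 11 genes in Selfox and 1 of 11 in LPS against Control, with 0 higher. Without Control 46 the 7 were 4. The isoleucyl enzyme gene Iars was lower in both (-0.40 ± 0.10 in LPS and -0.51 ± 0.09 in Selfox), and Nars (-0.40 ± 0.08), Sars (-0.35 ± 0.07) and Yars (-0.40 ± 0.10) were lower in Selfox. Relatives of ATF6 differed in direction in Selfox: Creb3l3, a liver factor cut by the same proteases, was lower (-0.66 ± 0.10 in Selfox and -0.52 ± 0.10 in LPS), Creb3 was lower (-0.17 ± 0.06 in Selfox, lost in 11 of 16 fits that left out 1 library, and -0.24 ± 0.07 in LPS), and Creb3l2 was higher in Selfox (0.65 ± 0.15, adjusted p = 0.00274). Of this list of 7, 2 were lower in each comparison with Control and 1 was higher in Selfox with Control. Mbtps2, a protease that cuts ATF6, was higher in Selfox than in LPS (0.19 ± 0.06), which 11 of 17 fits that left out 1 library lost.

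In the rest of the secretory route, of 19 genes of ER translocation and glycosylation 2 were higher in LPS with Control and 4 in Selfox with Control, with 0 lower: Ssr1 of the translocon-associated complex (0.27 ± 0.09 in LPS and 0.33 ± 0.08 in Selfox), the channel subunits Sec61g (0.42 ± 0.14 and 0.37 ± 0.13) and Sec61b (0.39 ± 0.10 in Selfox), and Sec63 (0.20 ± 0.06 in Selfox). The shares higher were 10.5% in LPS and 21.1% in Selfox, not far from the 7.71% and 14.2% of all tested genes. In LPS the calls of Ssr1 and Sec61g were lost in 8 and 9 of 13 fits that left out 1 library, and in Selfox that of Sec61g in 5 of 16. Of 16 genes of ER to Golgi transport 1 was higher in LPS, the cargo receptor Lman1 (0.23 ± 0.07, lost in 4 of 13 such fits), and 1 in Selfox, the coat subunit Sec13 (0.25 ± 0.09, lost in 5 of 16). Among 16 other folding genes Selenof, a selenoprotein of the ER, was higher in LPS (0.27 ± 0.09, lost in 8 of 13 such fits) and Selfox (0.29 ± 0.08), Uggt1, the glycoprotein folding sensor, was higher in Selfox (0.29 ± 0.09), and Txndc5 and Mesd were lower in Selfox (-0.32 ± 0.09 and -0.26 ± 0.06). Of the transport genes 6.25% were higher in each model, and of the folding genes 6.25% in LPS and 12.5% in Selfox. In Selfox 12.5% of the folding genes were lower, beside 14.9% of all tested genes. No share of the transport or folding genes was above that of all genes.

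Of 18 other degradation genes 4 were lower and 1 higher in LPS with Control, and 6 were lower and 1 higher in Selfox with Control. Nploc4 and Ufd1, cofactors of the extraction ATPase p97, were lower in LPS (-0.40 ± 0.08 and -0.20 ± 0.05) and in Selfox (-0.32 ± 0.07 and -0.28 ± 0.05), and the conjugating enzyme gene Ube2j1 was lower in both (-0.25 ± 0.07 and -0.27 ± 0.07), although 4 of 13 fits that left out 1 library lost the call in LPS. Ubxn4 was lower in LPS (-0.34 ± 0.09), and Selenok, a selenoprotein of the ER membrane, was higher in LPS (0.39 ± 0.12, lost in 5 of 13 fits that left out 1 library) and in Selfox (0.50 ± 0.11, adjusted p = 0.00167). The calls of Ubxn4 and Ube2j1 in LPS with Control were lost with the late-clock libraries left out. In Selfox with LPS 1 was lower, Selenos (-0.32 ± 0.08), and 1 higher, Ubxn4 (0.26 ± 0.08), and neither was called with the late-clock libraries left out. Ubxn4 was also lost in 5 of 17 fits that left out 1 library. The total of 5 calls in LPS was 3 without Control 41 and 3 with the late-clock libraries left out.

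**Figure D4:**
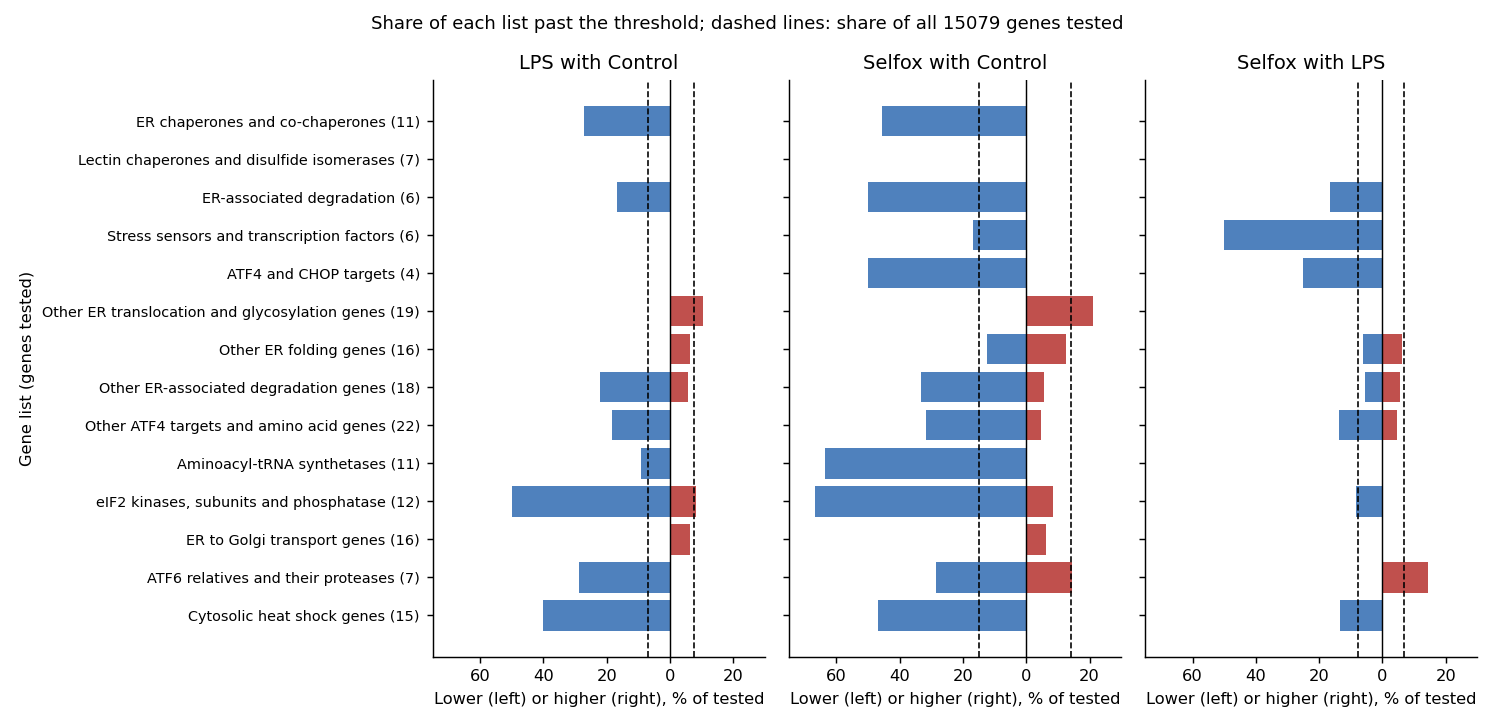
Share of the tested genes of each list called lower (blue, to the left) or higher (red, to the right) in each comparison, with the number tested in parentheses; dashed lines give the share of all 15079 genes. The eIF2 list reaches 66.7% lower and the aminoacyl-tRNA synthetases 63.6% lower in Selfox with Control, where 14.9% of all genes were lower, and lectin chaperones and disulfide isomerases show no bar.

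Genes also varied together within groups. After each group's mean was removed from log2 CPM, Pearson's r with Hspa5 across the 23 libraries was tested by permutation within groups (two-sided, 100000 permutations) for the other 33 genes, with Benjamini-Hochberg adjustment over the 33. Of these, 15 passed the threshold, all with positive r: 7 of the other 10 chaperones, 6 of the 7 lectin chaperones and isomerases, Syvn1 and Ern1. Correlation with Hspa5 was not computed for genes outside these 33. Whether 15 of 33 is above the share among all tested genes was therefore not tested. Manf had r = 0.82 (p = 0.0001, adjusted p = 0.00187; rho = 0.80, p = 9e-05), Creld2 r = 0.77 (p = 0.00024, adjusted p = 0.00198; rho = 0.70, p = 0.00077) and Hyou1 r = 0.75 (p = 0.00016, adjusted p = 0.00187; rho = 0.78, p = 4e-05). Without Control 52 and LPS 5, the libraries farthest from the median of Hspa5, these 3 values of r were 0.78, 0.71 and 0.71.

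None of the 4 targets of ATF4 and CHOP passed this threshold, nor by rho. Values of r were -0.26 for Trib3 (p = 0.249), -0.28 for Chac1 (p = 0.259), -0.28 for Ppp1r15a (p = 0.254) and 0.21 for Asns (p = 0.315), and their adjusted p ranged from 0.329 to 0.385. Herpud1, which carries an ERSE-II, had r = -0.35 (p = 0.135, adjusted p = 0.222; rho = -0.39, p = 0.0867), and Xbp1 r = -0.05 (p = 0.832, adjusted p = 0.858). As a description, the median r over the 55 pairs of chaperones was 0.52 and over the 21 pairs of lectin chaperones and isomerases 0.59, while over the 6 pairs of ATF4 and CHOP targets it was 0.00 and over the 44 pairs of a chaperone with such a target -0.13. All these genes share library, depth and composition.

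The clock difference was set beside these values. Hspa5 had r = -0.44 with log2 Dbp minus log2 Arntl within groups (p = 0.0653; rho = -0.40, p = 0.0897; r = -0.37 without the 2 libraries farthest from its median), and in the 18 libraries left without the late-clock ones 4 of the 33 genes passed the threshold, Hspa13, Manf, Hyou1 and Syvn1, each with an adjusted p of 0.025. With Spearman's rho 8 genes passed over all 23 libraries and 0 in those 18, where the lowest adjusted p was 0.0937.

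**Figure D5:**
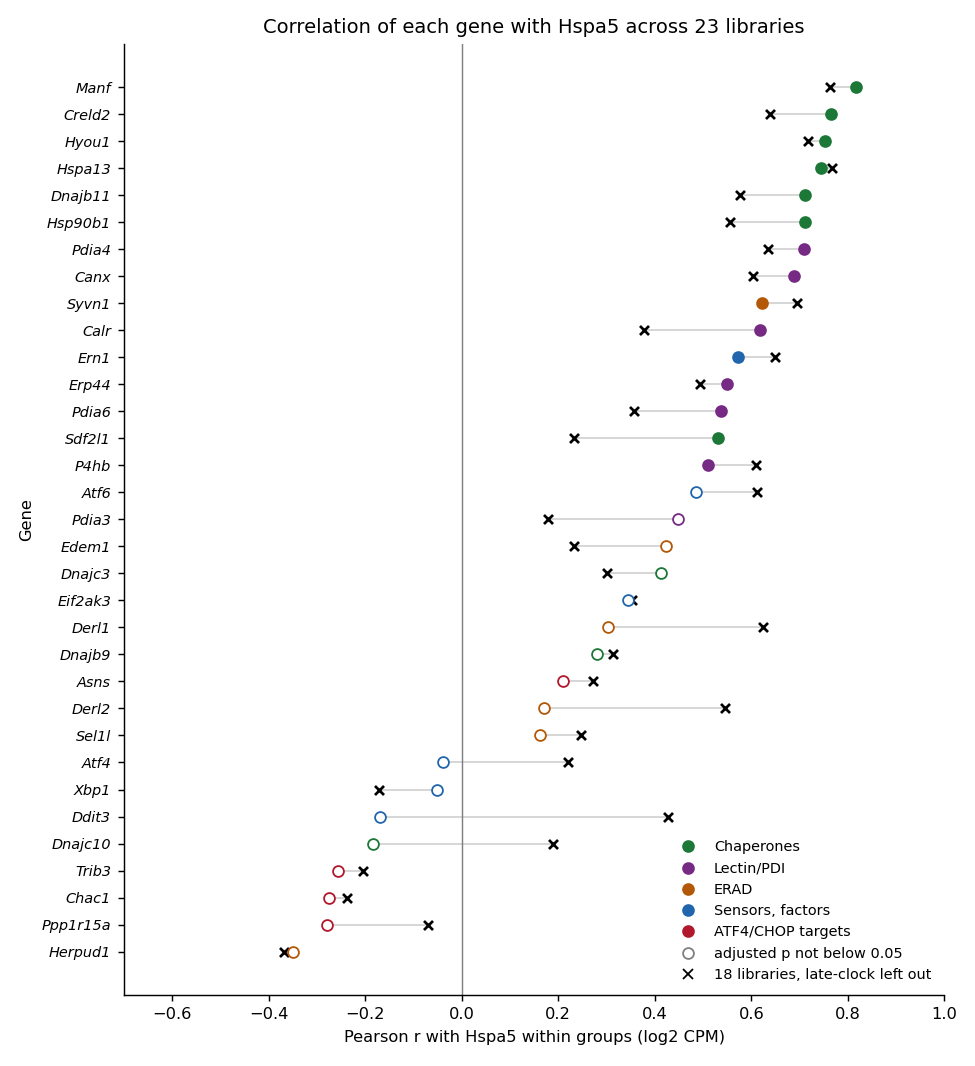
Pearson's r with Hspa5 within groups for the other 33 genes, ordered by r; circles use all 23 libraries, coloured by role and filled where the adjusted p is below 0.05, and crosses use the 18 libraries that are not late-clock. Filled circles run from 0.51 (P4hb) to 0.82 (Manf). ATF4 and CHOP targets lie at the lower end except Asns, and Herpud1 is lowest at -0.35.

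Cell type markers moved between the groups alongside these genes. For all counts of calls below, the shares over all tested genes were 6.99% lower and 7.71% higher in LPS with Control. They were 14.9% lower and 14.2% higher in Selfox with Control, and 7.64% lower and 6.86% higher in Selfox with LPS. All 9 Kupffer cell markers were lower in Selfox than in Control and in LPS, with a summed level of 251 to 388 CPM in Selfox, 616 to 936 CPM in LPS and 707 to 950 CPM in Control. Neutrophil markers summed to 4.90 to 119 CPM in Selfox, 3.92 to 11.1 CPM in LPS and 4.06 to 12.0 CPM in Control, with 5 of 6 higher in Selfox with Control. B and plasma cell markers, from a lineage rich in ER chaperones, summed to 149.8 to 177 CPM in LPS, 69.3 to 129 CPM in Selfox and 68.4 to 125 CPM in Control. Of 9 tested, 2 were higher in LPS with Control (Igh-6 and Jchain) and 4 were lower in Selfox with Control. In LPS with Control 5 of the 9 had negative log2 fold changes (median -0.21, range -0.81 to 3.14), so the higher sum does not stand for the whole list. Of the 2 B cell markers that were not tested, Cd79al had a count of 0 in all libraries. T and NK cell markers summed to 4.92 to 7.92 CPM in Selfox, 9.25 to 14.2 CPM in LPS and 7.33 to 9.68 CPM in Control. Of 9 hepatocyte markers 2 were higher and 4 lower in Selfox with Control, and 1 was higher and 0 lower in LPS with Control. Of 6 markers each, 0 sinusoidal endothelial, 0 stellate and 3 cholangiocyte markers were higher in LPS with Control, and 1, 2 and 2 were higher in Selfox with Control, with 0 lower. All 6 endothelial markers had negative log2 fold changes in LPS with Control (median -0.32), although 0 were called. Their sum was 170 to 335 CPM in LPS, 327 to 418 CPM in Selfox and 314 to 378 CPM in Control. In Selfox with LPS 2 of the 6 were higher. Of 12 clock genes 2 were higher and 0 lower in LPS with Control, and 2 higher and 4 lower in Selfox with Control. For clock genes and for endothelial markers the share higher in Selfox with Control was 16.7%, near the 14.2% of all genes. Of 9 feeding and fasting genes 4 were higher and 1 lower in LPS with Control, and 5 higher and 2 lower in Selfox with Control. The part of these cell types, and of the clock and feeding state, in the values of the stress response genes was not tested.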

How the data were processed

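RNA from whole liver was sequenced with a stranded mRNA kit, per the labels' protocols. The deposited values are counts of reads per gene; the authors used FastQC, Trim Galore, STAR 2.7.9a, featureCounts and Subread 2.0.3, per the submitters' processing notes. The genome build, annotation and strand setting were not given in the sources used here. Among counts of 1 to 9, 66.1% to 74.9% per library were even, so dividing all counts by 2 was tried as an alternative.

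Counts were fitted in R 4.3.3 with edgeR 4.0.16 (TMM factors, filterByExpr with a minimum count of 10, robust quasi-likelihood F test, 1 mean per group over all 23 libraries), with Benjamini-Hochberg adjustment over 15079 genes and a threshold of 0.05. The common biological coefficient of variation was 0.235, and 99.99% of counts were kept. CPM used TMM-scaled totals, log2 CPM a prior count of 2, and each SE was derived from the fold change and its F statistic. Alternatives were DESeq2 1.42.0, limma 3.58.1 (voom with sample weights), RLE factors, other filters, each comparison fitted alone, thinning to equal depth, a clock covariate, leaving out the late-clock libraries and leaving out each library in turn. The script was tested on simulated data.

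All 35 genes could be named, with full values for those past the threshold; of each related list at most 4 genes per comparison were named, those with the lowest adjusted p. The genes and lists were chosen with earlier results of these data known. Of 146 genes in the related lists 139 had a row, 11 aminoacyl-tRNA synthetases by older symbols. Libraries with the same number in LPS and Selfox were checked for pairing and were not treated as paired. The limit given for Derl3 covers counting error only and leaves out its overlap with Smarcb1. Each SE comes from the fit and includes the spread among libraries.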

Additional observations from a re-analysis of the deposited data

Results flagged for a closer look

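In 102 groups of libraries (34 genes in 3 groups), the highest or lowest library was compared with its nearest neighbour relative to the range of its group by Dixon's 95% critical values. Chance alone gives about 1 in 20 such groups, and 5 of 102 met it. Pdia4 was lowest in Selfox 1, at a log2 CPM of 8.0529. Ern1 was lowest in LPS 6, a late-clock library, at 6.4698. Asns was highest in Selfox 4, at 4.1137. Control 55, also a late-clock library, was highest among the Control libraries for Erp44, at 6.6486, and for Derl1, at 6.8837. Without Control 55, 3 genes (Derl1, Derl2, P4hb) were higher in LPS with Control in place of 0, and the total of calls was 8 in place of 4.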

How the results depend on the processing

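No called value changed direction under the alternatives run. In LPS with Control the count of genes past the threshold was 4; voom with sample weights gave 9, and leaving out 1 library gave 2 (without LPS 5 or Control 52) to 8 (without Control 55). Over all genes that comparison had 2217 calls, and 1409 to 2723 with 1 library left out. In Selfox with Control 11 genes became 8 to 14 with 1 library left out. In Selfox with LPS 5 genes became 4 to 5 with 1 library left out and 3 without the late-clock libraries, where calls over all genes fell to 1434, against 2187 with all libraries. The count of genes correlated with Hspa5 was 15, and 4 without the late-clock libraries. The causes were not tested.

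Whether numbers 1 to 7 pair libraries of Selfox and LPS is not stated in the labels. Deviations of same-numbered libraries correlated at -0.06 to 0.18, and 1 of 7 correlated best with its own number. Low correlations cannot show that the libraries were not handled in pairs. With the replicate block on these libraries 2 of the stress response genes and 1259 of all genes passed in Selfox with LPS. Without the block the same libraries gave 3 stress response genes. Atf4, Trib3 and Ddit3 lost their calls with the block, and Ern1 and Ddit3 lost theirs without it. Counts of the related lists under the same alternatives were added after seeing the data. Depth was lowest in Control, at 31.9 M, and after thinning to equal depth 4 genes passed in LPS with Control and 11 in Selfox with Control.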
